A study of Mus musculus with 9 samples.

Results

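The genes described here were nearly silent in parental HC11 cells and in one Vangl2-edited line and were transcribed at a low level in the other. They are the 25 genes, of 55228 in the count table, with more than 2 CPM (a gene's count divided by the column total, times 1000000) in all 3 KD2 cultures and a mean below 0.2 CPM in both WT and KD1. The measured values of all 9 cultures chose them, so their differences between lines are given as a description and were not tested. Of the 25 genes, 21 are annotated as protein-coding, 3 as pseudogenes and 1 as a processed transcript.

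HC11 is a mammary epithelial cell line from a BALB/C mouse. RNA-seq was performed on polyA RNA from 3 cultures each of the parental WT cells, of KD1 and of KD2, all kept undifferentiated in RPMI-1640 supplemented with insulin (5 µg/mL), EGF (10 ng/mL) and FBS (10%). KD1 and KD2 are single lines grown from cells that received one or the other guide against Vangl2, a core component of the planar cell polarity pathway, with a repair template carrying stop codons, and the labels call them knockout 1 and knockout 2. An edited line without a Vangl2 guide was not analysed here, so the edit and the clone cannot be told apart in either line, and nothing in the labels says whether cultures of a line were grown separately, so p-values measure the spread between these cultures only. Depth ranged from 19231428 to 28360592 counts per culture. Vangl2 itself had 66, 99 and 86 counts in WT, 75, 48 and 69 in KD1 and 90, 118 and 90 in KD2, so its transcript level does not check the KD2 label.

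Many of these genes are known from cell types other than mammary epithelium. Interferons induce sets of genes that sense microbes, cut up proteins for presentation to T cells and form GTPase coats on intracellular pathogens. Mas-related receptors sit on sensory neurons and mast cells, voltage-gated sodium channels carry the action potential in neurons, and calponin and myosin light chain kinase belong to the contractile apparatus of smooth muscle and of mammary myoepithelium.

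Together the 25 genes held between 38 and 62 counts in each WT culture, 38 to 49 in each KD1 culture and 2025 to 3222 in each KD2 culture. On the CPM scale their sum was 1.90 to 2.43 in WT, 1.36 to 1.92 in KD1 and 105 to 114 in KD2. Nearly silent here means few counts rather than none. Of the 150 values of single genes in single WT or KD1 cultures 45 were 0, and the highest was 8 counts, for Slc25a48 in WT replicate 2. A count of 0 in 1 culture allows up to 3 counts, or 0.106 to 0.156 CPM over the 9 libraries, so silence below that level was not detectable in a single culture. The limit of 0.2 CPM applies to the mean of 3 cultures, for which a floor of 3 counts over the group is lower. In 11 of the 25 genes no WT or KD1 culture held more than 3 counts. Because the RNA came from bulk cultures, fewer cells of a type and less RNA per cell cannot be told apart.

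**Figure D1:**
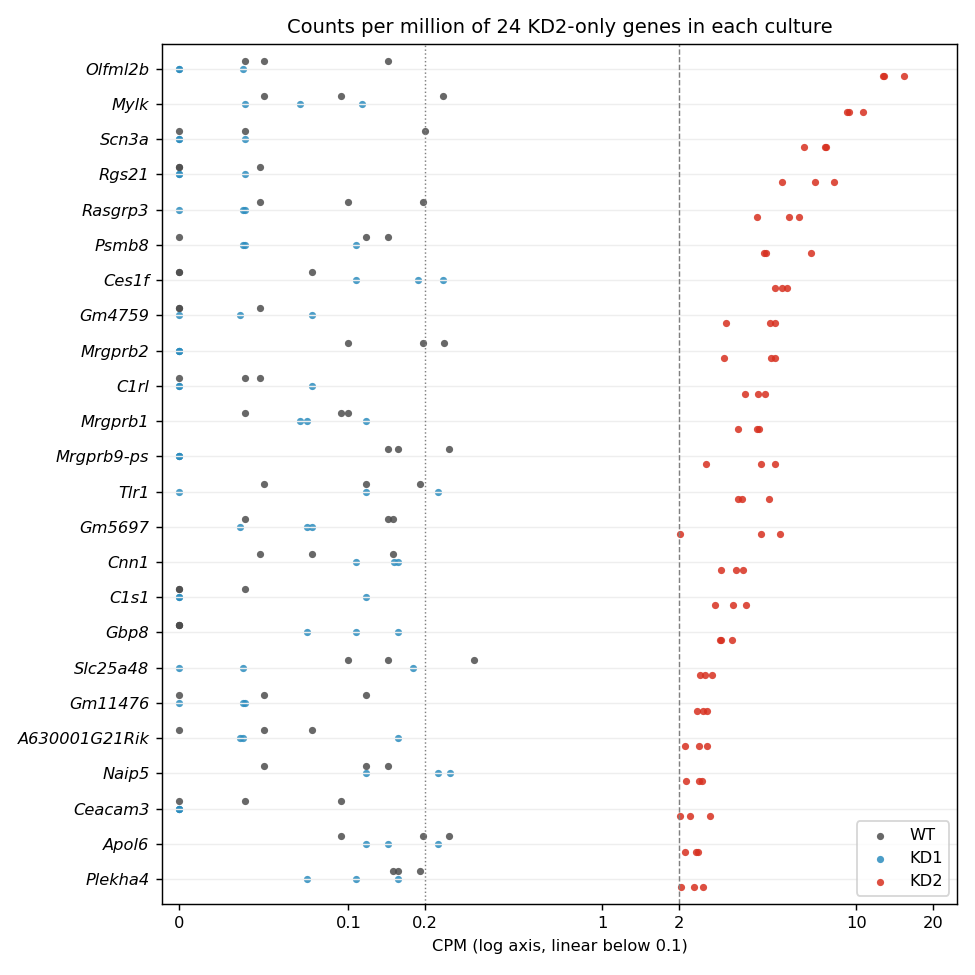
CPM of 24 of the genes (rows, ordered by mean in KD2) in each of the 9 cultures, on a log axis that is linear below 0.1; each point is a culture of WT, KD1 or KD2. The dashed line marks 2 CPM and the dotted line 0.2 CPM, the limits by which the genes were chosen, so the gap between the lines is set by the choice, while the position of each KD2 point beyond 2 CPM is not.

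In KD2 the genes were of low abundance. Their median was 0.926 CPM per kb of exon, against 9.32 for the 11461 genes above 2 CPM in all KD2 cultures, of which they make up 0.218%. Without the correction for length the medians were 3.84 and 42.3 CPM. The order by this length-adjusted level put Olfml2b first with 4.40 CPM per kb and Mrgprb9-ps next with 4.31, and Plekha4 last with 0.357. The same rule with KD1 in place of KD2 found 32 genes and with WT in place of KD2 found 14, so a group of genes read in 1 line and nearly silent in the other 2 was also present in each of the other lines.

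The members closest to the limit in KD2 were Gm5697, Ceacam3 and Plekha4, whose lowest KD2 culture had 2.03 CPM each. Adgrd1 with 1.99 CPM and Tmem169 and Ptpn7 with 1.98 each fell just short of it. At the other limit, the higher of the WT and KD1 means was 0.198 CPM for Naip5, 0.186 for Slc25a48 and 0.183 for Mrgprb9-ps. Mx2 with 0.2004, Dnaaf3 with 0.201 and Sept4 with 0.210 were just above and were left out. Scaling to the TMM-adjusted library size in place of the column total kept 20 of the 25 genes and left out Apol6, Ceacam3, Gm5697, Naip5 and Plekha4.

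Genes outside the group are called higher or lower below at an adjusted p under 0.05 in edgeR and an absolute log2 fold change above 1. By these limits KD2 exceeded WT for 14.5% of the 15253 genes tested and fell short of it for 6.71%, and exceeded KD1 for 14.7% and fell short of it for 8.58%, which is the background for every count of relatives, neighbours and lists. All comparisons of KD2 share the same 3 KD2 cultures. A gene nearly silent in WT was tested only if an edited line read it, so such genes are apt to be called higher than in WT. A gene nearly silent in both WT and KD1, such as C1ra, Mrgprb3, Scn2a and Des below, was tested only if KD2 read it. Its calls above both lines were then largely set by the filter.

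The gene with the highest level, both in CPM and per kb of exon, was Olfml2b (chr1:170644532-170682789, GRCm38), which encodes a secreted olfactomedin-domain protein of the extracellular matrix. Olfml2b had 1, 1 and 3 counts in WT, 0, 1 and 0 in KD1 and 302, 360 and 295 in KD2, which is 13.6 ± 1.50 CPM (SD, n = 3). KD2 counts exceeded those of WT by a ratio of 179 (95% exact interval for counting error only, 76.3 to 552). It lies 1318.2 kb from Vangl2 on the same chromosome, and none of the 4 genes tested within 250 kb of it was called different between KD2 and either other line. The related Olfml2a held 4, 5 and 3 counts in WT, 3, 0 and 2 in KD1 and 8, 16 and 10 in KD2, too few to be tested.

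A first group has roles in innate immunity. Psmb8 (chr17:34197721-34201454) encodes LMP7, a catalytic subunit that replaces its constitutive counterpart in the immunoproteasome. It had 0, 3 and 3 counts in WT, 3, 1 and 1 in KD1 and 102, 125 and 127 in KD2, and KD2 replicate 3 was the highest of the KD2 cultures at 6.60 CPM against 4.32 and 4.41. Of its 50-base exon windows 11.9% also occur in another gene, nearly all in the overlapping antisense gene Gm20496, so some of these reads are uncertain where counting ignored strand.

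The other immunoproteasome subunits are Psmb9 and Psmb10, and Psmb9 had more counts in KD1 than Psmb8 did. Psmb9, the neighbour of Psmb8 on the chromosome, had 4, 6 and 5 counts in WT, 33, 44 and 31 in KD1 and 50, 80 and 74 in KD2. Psmb9 was higher in KD2 than in WT (log2 fold change 3.54 ± 0.33 SE, edgeR adjusted p = 4.2e-07), and the difference from KD1 was below the 2-fold limit (0.97 ± 0.23, edgeR adjusted p = 0.0016). Psmb10 rose against WT by 1.04 on the log2 scale and differed from KD1 by 0.13, while the constitutive subunits Psmb5, Psmb6 and Psmb7 differed from WT by -0.56, 0.26 and 0.32 and were not called. Psmb9 thus had 31 counts or more in each KD1 culture, where Psmb8 had 3 at most.

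Gbp8 (chr5:105014150-105139540) belongs to the guanylate-binding proteins, interferon-induced GTPases that assemble on pathogens and their vacuoles. It had 0, 0 and 0 counts in WT, 3, 2 and 4 in KD1 and 69, 92 and 56 in KD2. Against a floor of 3 counts over the WT group it was at least 67.5-fold higher in KD2. Of its windows 18.1% occur in other genes, Gbp11, Gbp10 and Gbp9 foremost, and its exons overlap those of Gbp4 and Gbp9 on the same strand. All 7 other guanylate-binding genes tested were called higher in KD2 than in WT and than in KD1. Gbp4 rose by 7.23 against WT and 3.68 against KD1 on the log2 scale, and Gbp9 by 6.07 and 3.69, and both had 18 counts or more in each KD1 culture, where Gbp8 had 4 at most.

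Gm4759 (chr7:106417848-106424469) is an unprocessed pseudogene that shares exon windows with Gm8979, Gm8989 and Gvin1 of the very large inducible GTPases. Its counts were 0, 0 and 1 in WT, 1, 0 and 2 in KD1 and 108, 136 and 59 in KD2. Its relatives were read in KD1 too: Gm8995 had 17, 12 and 4 counts in WT, 1227, 1128 and 1113 in KD1 and 360, 442 and 207 in KD2, and Gm4070 had 1, 0 and 1 in WT, 59, 43 and 52 in KD1 and 134, 146 and 63 in KD2. The relatives differed in KD2 against KD1, where Gm8995 was lower (log2 fold change -1.76 ± 0.13 SE, edgeR adjusted p = 3.9e-08), and Gm4070 was higher (1.18 ± 0.21 SE, edgeR adjusted p = 0.00021).

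Apol6 (chr15:77044729-77057106) encodes an intracellular apolipoprotein L. It had 5, 5 and 2 counts in WT, 4, 6 and 3 in KD1 and 56, 60 and 45 in KD2, the smallest ratio to WT of the 25 genes at 12.5 (95% exact interval 6.98 to 24.8, which overlaps those of Slc25a48 and Plekha4). Apol9a and Apol9b, which were not chosen, rose against WT by 5.68 and 6.18 on the log2 scale and differed from KD1 by only 0.86 and 0.69, below the 2-fold limit. Apol10b was higher than in both lines, by 4.25 and 2.08, and Apol7a was higher than in WT by 1.91 but fell by 2.16 against KD1. The relatives of Apol6 therefore did not share 1 order of the lines.

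Tlr1 and Naip5 sense bacteria. Tlr1 (chr5:64924679-64933563) pairs with Tlr2 to bind lipopeptides at the cell surface, and had 1, 3 and 4 counts in WT, 0, 6 and 3 in KD1 and 81, 129 and 68 in KD2. Of its windows 15.4% occur elsewhere, mainly in its neighbour Tlr6, which had 9, 21 and 17 counts in WT, 23, 16 and 25 in KD1 and 73, 77 and 39 in KD2 and was called higher than in WT (1.79 ± 0.26 SE, edgeR adjusted p = 3.3e-05) and than in KD1 (1.59 ± 0.24 SE, edgeR adjusted p = 5.1e-05). Its partner Tlr2 was higher in KD2 than in WT by 1.21 on the log2 scale and differed from KD1 by 0.17. Tlr3, with more than 1000 counts in every culture, was not called in either comparison.

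Naip5 (chr13:100211739-100246323) encodes the cytosolic flagellin sensor that activates NLRC4. It had 1, 3 and 3 counts in WT, 7, 6 and 3 in KD1 and 58, 68 and 41 in KD2. Of its windows 36.9% occur in other genes, mainly Naip6, more than for any other of the 25 genes, and the related Naip2 and Naip6 were higher in KD2 too. Naip6 had 7, 5 and 7 counts in WT, 37, 28 and 23 in KD1 and 183, 232 and 129 in KD2, and Naip2 rose by 3.49 against WT and 1.77 against KD1 on the log2 scale. Other genes of inflammasome signalling were split. Casp1, Casp4 and Il18 were called higher than in both lines, with rises over WT of 2.23, 4.33 and 4.11 on the log2 scale. Pycard, the gene of the ASC adaptor, and Nlrc4 stayed low. Pycard had 11, 9 and 6 counts in WT, 15, 4 and 12 in KD1 and 5, 12 and 7 in KD2, and Nlrc4 had 7, 2 and 3 in WT, 11, 10 and 5 in KD1 and 5, 15 and 3 in KD2.

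C1s1 and C1rl, 19.7 kb apart on chromosome 6, encode the C1s protease of the classical complement pathway and a C1r-like protease. C1s1 (chr6:124530345-124542359) had 0, 1 and 0 counts in WT, 0, 0 and 3 in KD1 and 87, 79 and 63 in KD2. C1rl (chr6:124493113-124510643) had 0, 1 and 1 in WT, 0, 0 and 2 in KD1 and 97, 103 and 84 in KD2. C1ra, the gene of the C1r protease in the same cluster, missed the rule through its WT and KD1 means, with 5, 4 and 5 counts in WT, 7, 6 and 5 in KD1 and 165, 209 and 180 in KD2. The log2 fold changes of C1ra were 5.08 ± 0.24 SE over WT and 4.97 ± 0.22 SE over KD1. They are a description, because C1ra passed the expression filter only through KD2. C1s1 shares 35.1% of its windows with other genes, mostly C1s2, while C1rl shares none.

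The next group are receptors and regulators of signalling. Mrgprb1, Mrgprb2 and Mrgprb9-ps lie together on chromosome 7 with gaps of 94.6 kb and 32.7 kb. Mrgprb2 encodes the mast cell receptor for cationic peptides and drugs, and had 2, 5 and 5 counts in WT, 0, 0 and 0 in KD1 and 109, 136 and 58 in KD2. Mrgprb1 had 2, 1 and 2 in WT, 2, 2 and 3 in KD1 and 96, 117 and 66 in KD2. The pseudogene Mrgprb9-ps had 5, 4 and 3 in WT, 0, 0 and 0 in KD1 and 99, 136 and 49 in KD2. Against a floor of 3 counts over the KD1 group, Mrgprb2 was at least 113-fold and Mrgprb9-ps at least 106-fold higher in KD2. None of the 3 shares a 50-base window with any other gene, so reads of each are its own at that length.

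A further gene of this cluster, Mrgprb3, fell below 2 CPM in 2 of the 3 KD2 cultures. It had 1, 3 and 1 counts in WT, 0, 0 and 0 in KD1 and 47, 68 and 30 in KD2. Its log2 fold change over WT of 4.54 ± 0.40 SE is a description, because it passed the expression filter only through KD2. Of the 30 other genes of the Mas-related family 26 never exceeded 3 counts in any culture, and Mrgpre, which was called lower than in both lines, had 16, 33 and 32 counts in WT, 145, 147 and 137 in KD1 and 14, 16 and 9 in KD2. Of 10 mast cell marker genes 8 never exceeded 3 counts in any culture, and their summed level in KD2 was 0.466 to 0.572 CPM, against 0.640 to 1.10 in KD1 and 0.274 to 0.334 in WT. Hdc, the histidine decarboxylase gene and the 1 marker that was tested, had 2, 1 and 0 counts in WT, 27, 16 and 27 in KD1 and 11, 14 and 10 in KD2. The receptor genes were therefore read in KD2 with most mast cell markers at or near 0.

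Rgs21 (chr1:144516648-144567667) encodes a small regulator of G protein signalling known from taste cells. It had 0, 0 and 1 counts in WT, 0, 0 and 1 in KD1 and 162, 231 and 98 in KD2, a ratio to WT of 458 with a counting interval of 81.9 to 18146, because WT held a single read. The interval overlaps that of Olfml2b, so no order of the largest ratios can be read. No gene within 250 kb was read well enough to be tested. Of 12 other Rgs genes tested, 3 were called higher than in WT and 2 lower, among them Rgs11 (up by 2.50 on the log2 scale) and Rgs2, which fell by 1.68 on the log2 scale.

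Rasgrp3 (chr17:75435896-75529054) encodes an exchange factor that loads Ras and Rap1 in response to diacylglycerol. It had 2, 5 and 1 counts in WT, 0, 1 and 1 in KD1 and 128, 169 and 78 in KD2, or 5.15 ± 0.981 CPM (SD, n = 3). The other 3 Rasgrp genes were read too little to be tested.

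Scn3a (chr2:65457118-65567627) encodes a pore-forming sodium channel subunit of the developing brain. It had 4, 1 and 0 counts in WT, 0, 0 and 1 in KD1 and 180, 214 and 120 in KD2. Its mean level in KD2 was 7.14 ± 0.778 CPM (SD, n = 3), but over a long transcript this is 0.573 CPM per kb, below the median of the 25 genes. Scn2a, next to Scn3a, had 0, 0 and 2 counts in WT, 3, 1 and 0 in KD1 and 28, 19 and 23 in KD2. Its log2 fold changes were 4.72 ± 0.70 SE over WT and 4.06 ± 0.60 SE over KD1. They are a description, because Scn2a passed the expression filter only through KD2. It shares most of the 6.49% of Scn3a windows that are not unique.

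The contractile genes were Mylk and Cnn1. Mylk (chr16:34745210-35002420) encodes the kinase that activates smooth muscle myosin, and had 1, 6 and 2 counts in WT, 2, 3 and 1 in KD1 and 220, 261 and 204 in KD2, or 9.71 ± 0.779 CPM (SD, n = 3). Cnn1 (chr9:22099216-22109630) encodes calponin 1, an actin-binding protein of smooth muscle, and had 3, 2 and 1 in WT, 3, 4 and 4 in KD1 and 69, 95 and 69 in KD2. Of 12 other smooth muscle and myoepithelial genes tested, 5 were higher in KD2 than in WT and 8 than in KD1, and none was lower. Cald1, Tpm1, Des, Acta2 and Actg2 were higher than in both lines. Des had 1, 0 and 3 counts in WT, 2, 1 and 1 in KD1 and 44, 68 and 46 in KD2, which left it below 2 CPM in 1 culture. Tagln and Myh11, also used as smooth muscle markers, differed from WT by 0.26 and -0.31 on the log2 scale and were not called, though Myh11 was higher than in KD1 by 1.53. Oxtr, the oxytocin receptor gene of myoepithelium, had 142, 222 and 147 counts in WT, 2, 3 and 1 in KD1 and 100, 115 and 89 in KD2. Of the related calponin genes, Cnn2 was higher than in WT by 1.45 and differed from KD1 by 0.93, below the 2-fold limit, and Cnn3 differed by 0.16 and 0.00.

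**Figure D2:**
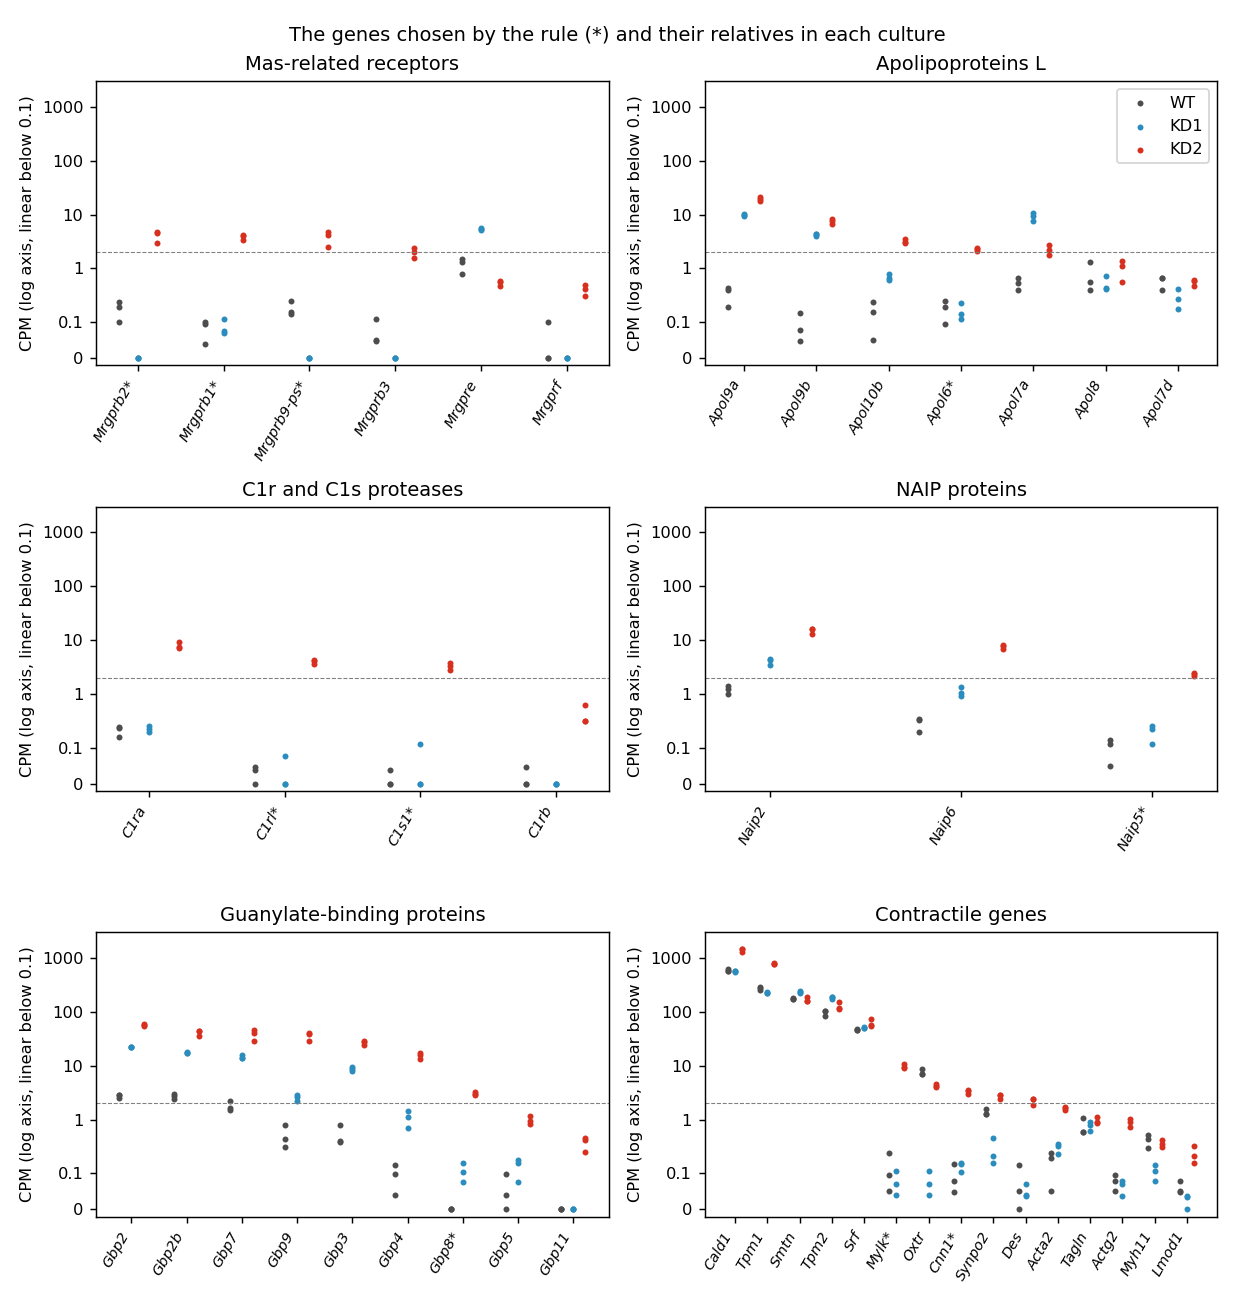
CPM of 6 gene families in each culture of WT, KD1 and KD2 (log axis, linear below 0.1); asterisks mark the genes chosen by the rule, the dashed line is 2 CPM, and relatives whose 3 line means sum to 0.3 CPM or less are not drawn. Relatives of the chosen genes differ in KD1: Mrgprb3 is at 0 in all KD1 cultures, Gbp2, Gbp3 and Gbp9 are above 2 CPM in all KD1 cultures, and Mylk and Cnn1 sit among contractile genes that range from 0.228 CPM for Lmod1 to more than 1000 CPM for Cald1 in KD2.

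Ces1f (chr8:93256236-93279747) encodes a carboxylesterase known from liver. Ces1f had 0, 2 and 0 counts in WT, 3, 5 and 6 in KD1 and 126, 136 and 98 in KD2, and its KD2 cultures agreed closely at 5.08 ± 0.272 CPM (SD, n = 3). In the same gene cluster, Ces1g had 156, 258 and 201 counts in WT, 287, 293 and 274 in KD1 and 883, 1064 and 660 in KD2 and was called higher than in both lines, while Ces1a had 0, 0 and 0 in WT, 54, 49 and 56 in KD1 and 1, 7 and 6 in KD2. Ces1a was thus read mainly in KD1 and its neighbour Ces1f in KD2.

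Slc25a48 (chr13:56438355-56474239), of the mitochondrial carrier family, had 2, 8 and 3 counts in WT, 5, 1 and 0 in KD1 and 60, 69 and 52 in KD2. Ceacam3 (chr7:17150282-17164253), of the carcinoembryonic antigen family of adhesion molecules, had 0, 1 and 2 in WT, 0, 0 and 0 in KD1 and 52, 75 and 39 in KD2. None of the other 3 Ceacam genes tested was higher in KD2 than in WT, and Ceacam19, with 30, 44 and 42 counts in WT, 371, 354 and 365 in KD1 and 54, 74 and 32 in KD2, was high in KD1 instead.

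Plekha4 (chr7:45526330-45554229) encodes a pleckstrin homology protein known to act on Dishevelled in Wnt and planar cell polarity signalling, the pathway to which Vangl2 belongs. It had 3, 4 and 4 counts in WT, 3, 2 and 4 in KD1 and 48, 65 and 48 in KD2. Its level in KD2 was the lowest of the 25 genes both in CPM, at 2.27 ± 0.232 (SD, n = 3), and per kb of exon. The other 7 Plekha genes were all tested and none was called different between KD2 and WT.

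The remaining genes have no role that can be stated with certainty. A630001G21Rik (chr1:85717083-85778643) is a coding gene that lies beside Sp110, Sp140 and Sp100, and had 1, 2 and 0 counts in WT, 1, 1 and 4 in KD1 and 50, 73 and 46 in KD2. Gm11476 (chr2:167553314-167607845) is a processed transcript, with 1, 3 and 0 in WT, 0, 1 and 1 in KD1 and 61, 67 and 48 in KD2. It overlaps the antisense gene Ube2v1, which shares 8.07% of its windows. Gm5697 (chr1:28800240-28802721) is a processed pseudogene, with 3, 1 and 3 in WT, 1, 2 and 2 in KD1 and 118, 119 and 39 in KD2. Of its windows 5.47% occur in Rpap3.

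The KD2 cultures gave similar levels for most of the genes. The highest culture was less than 1.5 times the lowest in 19 of the 25 genes and more than 2 times in 1, Gm5697, with a ratio of 2.47. KD2 replicate 3, the shallowest library, was the lowest of the KD2 cultures for 11 genes and the highest for 8, and over all genes above 2 CPM in KD2 it was the lowest for 43.0%. The genes low in replicate 3 included Mrgprb2, Mrgprb9-ps, Gm4759, Rgs21 and Rasgrp3, and those high in it included Psmb8, Olfml2b and Mylk.

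**Figure D3:**
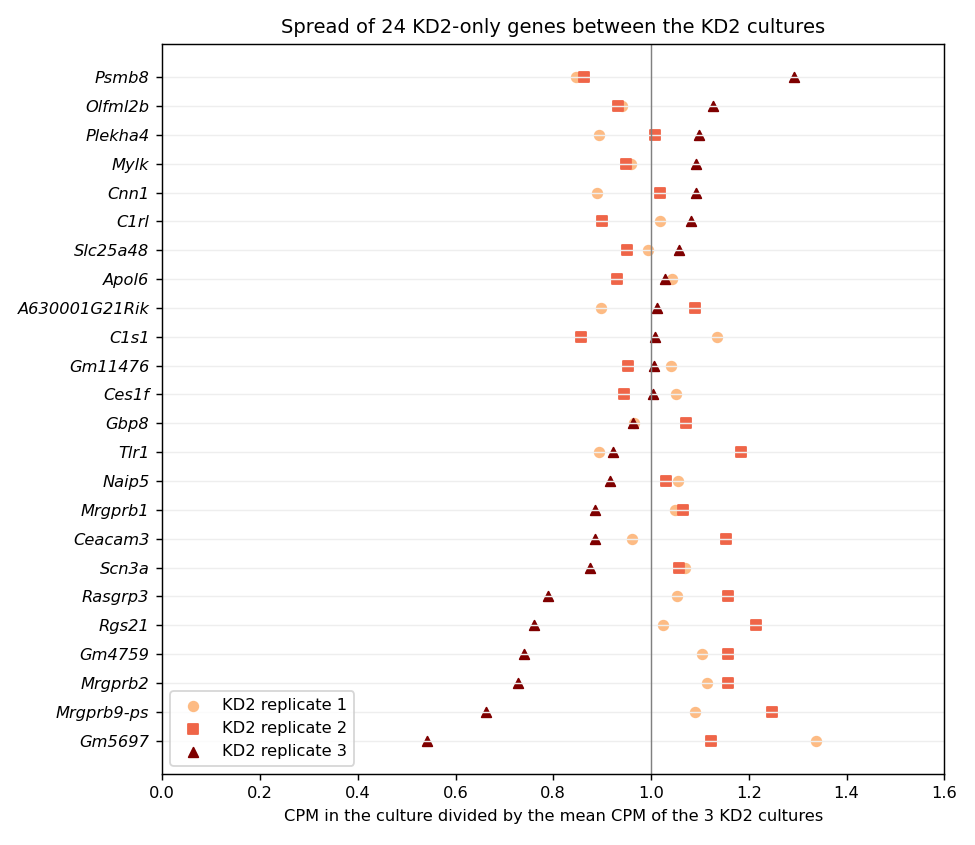
CPM in each KD2 culture divided by the mean of the 3 KD2 cultures, for 24 of the genes ordered by the relative level in replicate 3. Most points lie close to 1, Gm5697 has the widest spread, and replicate 3 is below the other cultures in the lower rows and above them in the upper rows.

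The genes were spread over 11 chromosomes. Chromosome 7 held 6 of the 25 (24%, against 7.57% of the genes above 2 CPM in KD2), of which 3 are the Mas-related genes, and chromosome 1 held 4 (16% against 5.69%). Over all genes tested the median log2 fold change between KD2 and WT was 0.03 on chromosome 7 and 0.14 on chromosome 1. On chromosome 13, where it was -0.66, Slc25a48 and Naip5 were both chosen.

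Position was not used by the rule, so the 141 genes tested within 250 kb of the chosen genes were examined. Of these, 40 (28.4%) were called higher in KD2 than in WT, where 14.5% of all 15253 genes tested were called, and 12 (8.51%) were called lower, where 6.71% of all genes were. Against KD1, 35 (24.8%) were higher and 9 (6.38%) lower, beside 14.7% and 8.58% of all genes. All 12 neighbours of the same family as the gene beside them (C1ra, Ces1a, Ces1g, Gbp4, Gbp9, Gm8995, Mrgprb3, Naip2, Naip6, Psmb9, Scn2a and Tlr6) were higher than in WT and 9 of them (75.0%) higher than in KD1. Ces1a and Gm8995 were lower in KD2 than in KD1, and Psmb9 was not called against KD1. Relatives nearly silent in WT passed the expression filter of edgeR only through an edited line. This line was KD2 for C1ra, Mrgprb3 and Scn2a. It was KD1 for Ces1a, which had 54, 49 and 56 counts there and only 1, 7 and 6 in KD2. The share of relatives was thus partly set by the filter and cannot be weighed against that of all genes. Some of these relatives share exon windows with the chosen gene, as given above for Naip6, Tlr6, Gbp9 and Scn2a.

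Near Psmb8, in the major histocompatibility complex, 8 of 15 genes were higher than in WT, namely H2-K1, H2-K2, H2-DMa, Tap1, Tap2, Psmb9, Col11a2 and Gm20493, and 4 were higher than in KD1. Of the remaining 115 neighbours 21 (18.3%) were higher than in WT and 22 (19.13%) than in KD1. Among them were Sp100, Sp110 and Sp140 beside A630001G21Rik, Cd163 and Ptpn6 near C1s1, Kalrn beside Mylk and Ltbp1 beside Rasgrp3. Around Plekha4 more of the 25 neighbours tested were lower (7) than higher (3) than in WT, and around Naip5, besides the rise of Naip2 and Naip6, Mccc2, Bdp1 and Smn1 were lower.

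**Figure D4:**
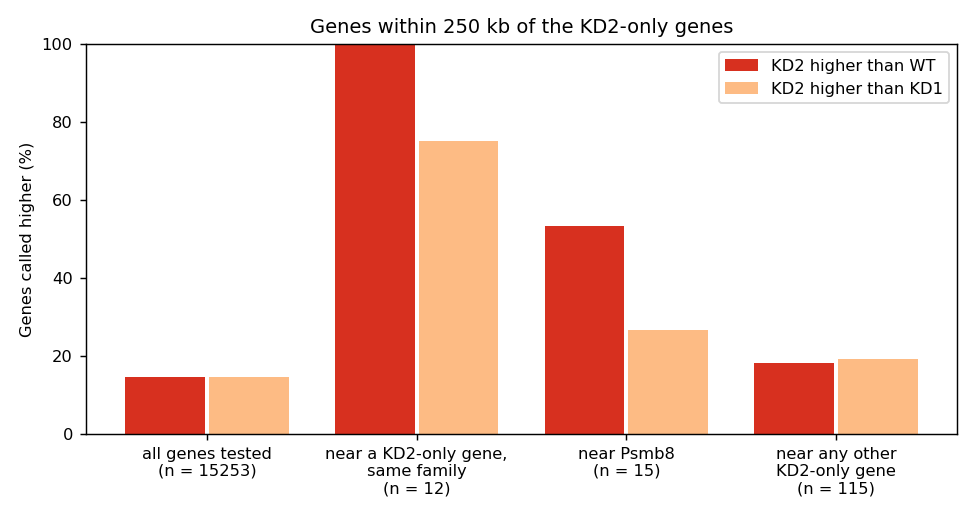
Share of genes called higher in KD2 than in WT (red) or than in KD1 (orange), for all genes tested and for genes within 250 kb of the chosen genes, split into relatives of the neighbouring chosen gene, all genes near Psmb8 and the rest; Psmb9 counts in both of the middle groups. The share is 100% against WT for the 12 relatives, 53.3% near Psmb8, and 18.3% for the other 115 genes beside 14.5% of all genes. Relatives nearly silent in WT were tested only where an edited line read them, so their share is partly set by the filter.

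Promoter sequences of RefSeq, on GRCm38.p6, were matched by symbol for 16 of the 25 genes, in windows of 250 bases before to 50 after each annotated start. A window was called CpG-rich when its CpG content was at least 0.6 of that expected from its C and G and its GC content at least 50%. Only Olfml2b and Plekha4 had such a window, 2 of 16 genes (12.5%). The share was 77.2% for 8888 other genes above 2 CPM in KD2, 58.4% for 1654 of these within the CPM range of the chosen genes, and 36.0% for all 27025 genes with a promoter. By the same count, 3 of 20 genes (15.0%) read in KD1 and nearly silent in KD2 and WT, and 7 of 9 genes (77.8%) read in WT and nearly silent in both edited lines, had a CpG-rich window. These shares are descriptions over few genes and were not tested.

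**Figure D5:**
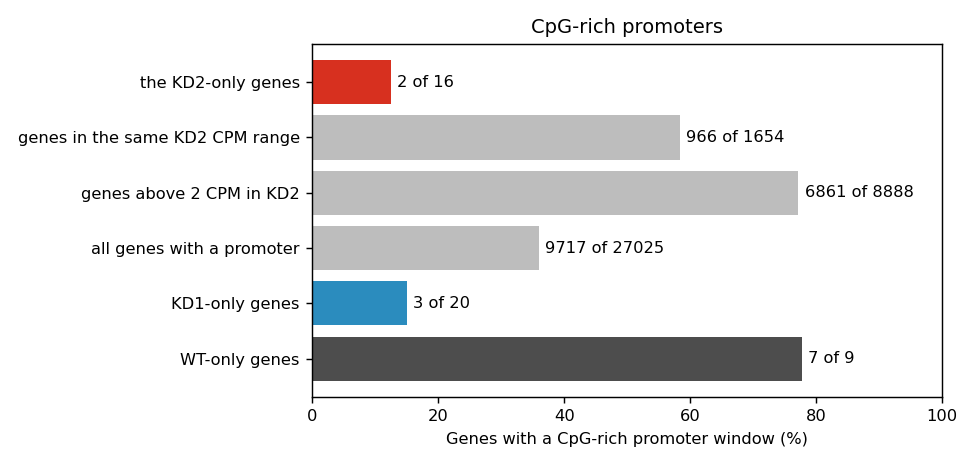
Share of genes with at least 1 CpG-rich promoter window, with the number of genes beside each bar, for the 25 KD2-only genes matched to a RefSeq promoter (16), for 3 wider sets and for the genes that met the same rule in KD1 or WT. The share is 12.5% for the KD2-only genes and 15.0% for the KD1-only genes, below the 77.8% of the WT-only genes.

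The contrast can be read in the 120 bases before the start of 4 of these genes, with CpG pairs in capitals. They were chosen from the low and high ends of the range. Stretches between these ends include Slc25a48 with 8 CpG pairs and Psmb8 with 7. The stretch of Mrgprb2 (chr7:48558087-48558206, minus strand) and that of C1s1 (chr6:124542360-124542479, minus strand) hold none, and those of Olfml2b (chr1:170644412-170644531, plus strand) and Plekha4 (chr7:45526210-45526329, plus strand) hold 11 each.
Mrgprb2: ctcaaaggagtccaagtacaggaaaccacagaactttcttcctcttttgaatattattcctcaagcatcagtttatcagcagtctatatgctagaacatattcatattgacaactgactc
C1s1: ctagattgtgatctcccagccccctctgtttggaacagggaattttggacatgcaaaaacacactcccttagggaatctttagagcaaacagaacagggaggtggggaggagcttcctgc
Olfml2b: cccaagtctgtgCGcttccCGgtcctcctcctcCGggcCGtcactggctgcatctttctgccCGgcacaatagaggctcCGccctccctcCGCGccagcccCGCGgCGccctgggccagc
Plekha4: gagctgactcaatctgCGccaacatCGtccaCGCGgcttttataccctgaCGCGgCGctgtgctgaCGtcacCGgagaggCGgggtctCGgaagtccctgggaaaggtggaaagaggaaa

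Motifs tied to interferon response and smooth muscle were searched on both strands of the same windows. The GAS letters TTCNNNGAA, bound by STAT factors, were found for Psmb8, Tlr1 and Plekha4 (18.8% of the 16 genes, against 9.55% of all genes with a promoter). The core of the interferon-stimulated response element, GAAA repeated after 2 free bases, was found for Mylk and Plekha4 (12.5% against 3.99%), and the CArG box bound by serum response factor for Mrgprb1 (6.25% against 1.81%). The 20 genes read in KD1 and nearly silent in the other lines held the same motifs at shares of 20%, 10% and 5%. The sites below show the motif in capitals, at chr17:34198088-34198116 (plus strand), chr5:64932909-64932937 (minus strand), chr16:34784733-34784762 (plus strand, with the motif on the opposite strand) and chr7:48456408-48456437 (minus strand). Each is a match of letters and not a measured site.
Psmb8 GAS: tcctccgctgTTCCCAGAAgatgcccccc
Tlr1 GAS: agtagctagcTTCATCGAAgcagagatgc
Mylk interferon-stimulated response element core: tctcctttttTTTCCTTTTCttctccccac
Mrgprb1 CArG box: agttcaaatgCCAAAAATGGtctcatgatg

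Wider lists of genes written for this cell type and these lines set the chosen genes in context. A list gene nearly silent in WT was tested only through an edited line, so the shares below were partly set by the filter. Of the 26 interferon-induced GTPases listed, 9 had no count in any WT culture. Of the interferon-induced GTPases, which include Gbp8, all 16 others tested were higher in KD2 than in WT and 15 were higher than in KD1. Their median log2 fold change over WT was 4.40, against 0.01 over all genes tested. The 3 with the highest mean CPM in KD2, by which genes of every list are named here, were Gbp2, Irgm1 and Gbp2b, with rises over WT of 4.23, 1.91 and 3.80 on the log2 scale. Of 56 interferon-stimulated effectors tested, none of which met the rule, 45 (80.4%) were higher than in WT (median log2 fold change 2.70), with Ddx58, Samd9l and Ifi27 named by level. Against KD1, 13 of the 56 were higher and 9 lower. The rise over WT was shared in part by KD1. KD1 was higher than WT for 36 of these 56 genes (64.3%) and for 10 of the 16 GTPases (62.5%), beside 9.34% of all genes tested outside the group. For antigen presentation and complement, which include Psmb8 and C1s1, 19 of the 21 others tested were higher than in WT (median log2 fold change 2.09) and 8 than in KD1. C3, Tapbp and H2-D1 rose over WT by 2.17, 1.71 and 3.23 on the log2 scale. Of these, only H2-D1 was called higher than in KD1, while C3 and Tapbp differed from KD1 by -0.26 and 0.38. KD1 was higher than WT for 10 of the 21 genes (47.6%). Of the 33 chemokine and cytokine genes tested, from 56 listed, 19 were higher and 2 lower than in WT. In the comparison with KD1 11 were higher and 16 lower. Cxcl12, Csf1 and Cxcl5 rose over WT by 3.65, 1.80 and 1.46 on the log2 scale. Against KD1, Cxcl12 and Csf1 were called higher, by 5.14 and 1.51 on that scale. Cxcl5 was called lower than in KD1, with a log2 fold change of -4.05.

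Markers of other cells moved with KD2 in part. Fibroblast and mesenchymal markers summed to 2289 to 2707 CPM in KD2, 989 to 1183 in WT and 165 to 168 in KD1. Of 19 tested, 10 were higher than in WT, among them Vim, Col5a1 and Pdgfrb with rises of 2.91, 1.57 and 6.32 on the log2 scale, and 3 were lower. Vim alone had a mean of 1152 CPM in KD2 and 142 in WT, so much of the summed difference between these lines came from 1 gene. Leukocyte markers summed to only 10.2 to 12.3 CPM in KD2, 7.72 to 10.1 in WT and 8.58 to 10.1 in KD1, and 13 of 24 never exceeded 3 counts. Of the 6 tested, Itgax, Lyz2 and Cd53 were higher and 1 was lower than in WT, and 3 were higher and none lower than in KD1. Mammary epithelial markers summed to 5052 to 6159 CPM in KD2, below the 7750 to 8608 of WT and the 9756 to 9826 of KD1, with 1 of 19 tested higher than in WT (Elf5) and 1 lower, and 1 higher and 9 lower than in KD1. The part of these differences in the level of the 25 genes was not tested.

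In the remaining lists the genes named are among those higher than in WT, and each total is of genes tested. The full lists held 73 matrix, 78 adhesion, 129 developmental, 52 germline, 26 neural, 19 muscle and adipose and 14 endothelial genes. In no culture did 35 of the germline genes and 14 of the neural markers exceed 3 counts. Of 52 matrix, collagen and protease genes 24 were higher (among them Fn1, Thbs1 and Col6a2) and 3 lower than in WT. Of 37 adhesion and guidance genes 10 were higher (among them Cdh2, Sema3f and Sema3b) and 12 lower. Of 55 homeobox and other developmental factors 10 were higher (among them Foxf1, Sox6 and Irx3) and 8 lower. Of the 9 germline and placental genes tested 6 were higher (among them Tex15, Psg17 and Elf5). Of the 7 neural markers tested 2 were higher (Ncam1 and S100b) and 1 lower. Of 7 muscle and adipose markers 3 were higher (Ttn, Des and Acta1), and of 4 endothelial markers 1 was higher (Eng) and 2 lower. The lists overlap, as Elf5 was also counted among the mammary epithelial markers and Des among the contractile genes above. Against KD1 most calls in these lists were higher in KD2: 28 higher and 5 lower for matrix, 20 and 5 for adhesion and guidance, 18 and 5 for developmental factors, 6 and 2 for germline and placental genes, 6 and 1 for neural markers, and 3 and 1 for muscle and adipose markers, while endothelial markers had 1 in each direction. The fibroblast and mesenchymal markers had 15 higher and none lower than in KD1.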

How the data were processed

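Raw counts per gene for 9 cultures of HC11 cells were taken as deposited, and every column was assigned to a line by its label (0 columns were left without a culture). Per the labels and the methods, the authors cleaned paired 50-base reads with fastp, aligned them by HISAT2 to GRCm38, counted reads over exons with featureCounts from Subread and tested these counts with DESeq2. The versions, and how strand and reads with several matches were treated, are not given in the sources used here. Labels and methods differ on whether the lysates were flash frozen.

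Genes with more than 2 CPM in every KD2 culture and means below 0.2 CPM in WT and KD1 were selected. The members and lists were chosen with earlier results of these data known, and the families of relatives were written after the members were seen. Members are named, except 1 gene that is not reported here, and from each list up to 3 called genes outside the rule with the highest mean CPM in KD2. Genes outside the rule were tested with edgeR 4.0.16 (quasi-likelihood, TMM, its expression filter, all 9 cultures in 1 fit) in R 4.3.3 and called at a Benjamini-Hochberg adjusted p under 0.05 over all 15253 genes tested and an absolute log2 fold change above 1. On data simulated for KD2 against WT the fit was tested beforehand. Ratios are of summed counts over summed depth with exact 95% intervals. Positions were taken from a GENCODE annotation of GRCm38 of another release than the authors used, in which 53569 of 55228 names matched. Windows of 50 bases of each member's exons were searched in the exons of all other genes. DESeq2 1.42.0, other scaling, other filters, a replicate block and leaving out each culture were alternatives.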

Additional observations from a re-analysis of the deposited data

How the results depend on the processing

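The number of genes that met the rule was 25 and depended on its limits. It was 72 with CPM above 1 in KD2, 4 with CPM above 5, 12 with means below 0.1 CPM in WT and KD1, 64 with means below 0.5 CPM and 11 with at most 3 counts in every WT and KD1 culture. It was 20 with TMM or median-of-ratios scaling, and 22 to 32 with a culture left out. Requiring at least 10 counts in every culture, which removes genes that are silent in 1 line by construction, lowered the genes called higher and lower in KD2 than in WT from 2211 and 1024 to 1173 and 525, and those called higher and lower than in KD1 from 2247 and 1309 to 1181 and 733. The share of neighbours called higher than in WT fell from 28.4% within 250 kb to 18.8% within 1000 kb. The same requirement lowered counts higher than in WT within gene lists, for example from 45 to 20 interferon-stimulated effectors. It lowered them from 16 to 6 for interferon-induced GTPases and from 6 to 1 for germline and placental genes.

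Cultures with the same replicate number did not deviate together (mean correlation of deviations 0.00116, range -0.0652 to 0.0789 over 9 pairs), so the numbers were not taken to pair them. With the replicate block 2206 genes were called higher and 1021 lower than in WT, and 2241 higher and 1311 lower than in KD1.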
